A study of Homo sapiens with 9 samples.

Results

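The Kruppel-like factors described here were 10 genes, KLF2, KLF3, KLF4, KLF5, KLF6, KLF7, KLF9, KLF10, KLF11 and KLF13, picked by symbol out of the 62710 genes of the deposited table. All 10 passed the filter on low values, a mean of at least 10 normalized counts over the 9 libraries, which kept 15230 genes. Poly(A) RNA was sequenced from A375R, a derivative of the human melanoma line A375 that was selected for resistance to the BRAF inhibitor PLX4032 and is kept with that drug in its medium. The 3 treatments had 3 libraries each. R4VPL3-1 is a PROTAC-like molecule that joins a part binding the ubiquitin ligase RNF4 to a part binding the ubiquitin ligase VHL, and VHL-r is the VHL-binding part alone. Cells received either compound at 10 µM for 2 h, and the control cells received the vehicle DMSO. All libraries came from this 1 resistant line, so the sensitive parent line was not part of the comparison. The sample labels name the controls only as wild type, and the series description gives them as DMSO-treated.

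Kruppel-like factors are transcription factors that bind GC-rich and CACCC-type DNA through tandem zinc fingers at their C-terminal end. They fall into subgroups by what their N-terminal part recruits. KLF2, KLF4, KLF5, KLF6 and KLF7 belong to the subgroup that works largely with acetyltransferases, KLF3 recruits the corepressor CtBP, and KLF9, KLF10, KLF11 and KLF13 carry a motif that recruits the corepressor SIN3A. Several are early-response genes whose short-lived mRNAs change quickly with growth factor, stress and hormone signals, and members of the family set the balance between proliferation, arrest and differentiation in epithelial and vascular cells.

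The libraries held between 26435568 and 32085626 reads assigned to genes, as recovered from the normalized values, and the 10 genes were read between 321 and 4134 times per library. The third principal component set replicate 3 of every treatment (10.3 to 16.2) apart from the other libraries (-12.6 to -2.5), and on the second component R4VPL3-1 replicate 3 (4.69) lay nearer to the DMSO libraries (2.29 to 4.22) than to the other R4VPL3-1 libraries (13.2 and 16.6). Without the 3 replicate 3 libraries the number of Kruppel-like factors called stayed 4 between the compounds, stayed 9 for VHL-r and became 9 for R4VPL3-1 against DMSO. Melanocyte-lineage markers were led by SOX10, at 17547 normalized counts in DMSO, and 1 of 10, MLANA, was at 0 in every library. The pigmentation genes TYR (at most 2.14 in any library), TYRP1 (at most 33.6) and PMEL (at most 36.8) were also low. The summed level of these markers ran from 26055 to 28143 in DMSO, from 16712 to 20538 under VHL-r and from 15098 to 17899 under R4VPL3-1, a fall carried by SOX10 and MITF, the only 2 of 7 tested that were called in both compounds. Of the endothelial markers, KDR was the highest, at 634 in DMSO, and fell with both compounds, while PECAM1 stayed at or below 10.1. The endothelial list summed to between 663 and 741 in DMSO, 465 and 484 under VHL-r and 443 and 541 under R4VPL3-1. The immune list summed to between 79.4 and 163, led by LYZ (128 in DMSO), with PTPRC at most 11.8. The keratinocyte list summed to between 1915 and 2307, led by KRT10 (1886 in DMSO) and KRT14 (347), with DSG3 at 0. The fibroblast list summed to between 2125 and 4584, led by COL1A1 (965 in DMSO), COL3A1 (687) and COL1A2 (629). In these lists KRT14 fell with R4VPL3-1 (-0.47, limma adjusted p = 0.00104) and LUM with VHL-r (-0.52, limma adjusted p = 0.0117). The part of these marker changes in the values below was not tested. In RNA from whole cultures, fewer cells of a kind and less RNA per cell cannot be told apart.

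The promoters of KLF2, KLF6 and KLF9 are shown because these genes carried the largest differences from VHL-r or from DMSO. Each window covers 250 bases before to 50 after the annotated start, read 5′ to 3′ on the gene's strand from RefSeq (GRCh38.p14). Capitals mark matches to any of 11 motifs searched on both strands. They were KLF2 at chr19:16324576-16324875 on the plus strand, KLF6 at chr10:3785160-3785459 on the minus strand and KLF9 at chr9:70414608-70414907 on the minus strand.
KLF2: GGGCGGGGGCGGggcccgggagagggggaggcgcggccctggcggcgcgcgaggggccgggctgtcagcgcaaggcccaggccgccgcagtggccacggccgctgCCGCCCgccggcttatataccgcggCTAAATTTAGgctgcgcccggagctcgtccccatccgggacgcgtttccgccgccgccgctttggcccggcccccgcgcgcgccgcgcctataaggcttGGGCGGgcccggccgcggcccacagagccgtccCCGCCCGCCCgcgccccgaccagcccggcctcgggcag
KLF6: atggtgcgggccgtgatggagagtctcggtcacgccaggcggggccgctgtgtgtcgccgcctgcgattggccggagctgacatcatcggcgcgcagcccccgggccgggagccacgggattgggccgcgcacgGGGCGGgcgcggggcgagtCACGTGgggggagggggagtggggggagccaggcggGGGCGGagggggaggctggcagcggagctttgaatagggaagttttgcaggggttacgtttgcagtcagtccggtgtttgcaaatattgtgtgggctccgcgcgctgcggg
KLF9: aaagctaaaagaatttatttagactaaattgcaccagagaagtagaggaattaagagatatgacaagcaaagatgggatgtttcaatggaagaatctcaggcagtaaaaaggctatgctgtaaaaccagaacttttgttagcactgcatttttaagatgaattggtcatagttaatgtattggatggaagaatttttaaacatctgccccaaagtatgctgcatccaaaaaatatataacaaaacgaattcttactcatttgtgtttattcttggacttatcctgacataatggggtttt

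The KLF2 window was 80.7% G or C and held 6 GC boxes (GGGCGG) and 1 MEF2 element. The MEF2 element began 120 bases before the start site, and a match to it was found in 0.572% of the 35116 promoter windows searched. The KLF6 window held 2 GC boxes and 1 E-box (CACGTG), which is found in 7.26% of windows. E-boxes also occurred in the windows of KLF4 and KLF11. KLF9 stood apart in base composition, with 32.7% G or C against a median of 58.7% over all windows, and held none of the letters searched. GC boxes were found in 45.0% of all windows and in 6 of the 8 Kruppel-like factors for which a window was matched. The remaining motifs were the heat shock element (GAANNTTC, 6.77% of windows), the AP-1 site (TGANTCA, 7.71%), the CRE (TGACGTCA, 1.85%), the antioxidant response element (TGACNNNGC, 13.3%), the TATA box (TATAAA, 11.5%) and the CArG box by name (1.29%), and none of these occurred in the 8 windows. The CACCC box (CCACCC, 34.3%) occurred in KLF7 and KLF13, and the hypoxia response element (ACGTGC, 6.89%), which shares letters with the E-box, occurred in KLF4, KLF5 and KLF11. The KLF11 window lay 279 bases from the reference start. A match describes the letters of the window only.

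Most of the 10 genes fell within 2 h of the VHL-binding part alone. They were chosen with earlier results of these data known, so their counts describe these genes and not the whole family. Among the other tested KLF genes, KLF14 fell with both compounds and KLF12 rose with both. KLF15 was called only with R4VPL3-1, upward, and KLF16 in no comparison. VHL-r changed 9 of the 10 genes against DMSO (19.8% of all genes tested were called), 8 of them downward (9.51% of all genes) and 1, KLF10, upward (10.3%). R4VPL3-1 changed 8 of 10 against the same DMSO libraries (24.9% of all genes), 7 downward (11.8%) and 1, KLF2, upward (13.1%). Between the compounds 4 of 10 differed (1.87% of all genes). KLF2 and KLF6 were higher with R4VPL3-1 (1.14% of all genes) and KLF9 and KLF10 were lower (0.729%). The median log2 fold change of the 10 genes was -0.53 for VHL-r and -0.55 for R4VPL3-1 against DMSO, where the medians of all genes tested were -0.0045 and -0.0063, and it was -0.067 between the compounds against -0.0056. Both comparisons with DMSO used the same 3 control libraries. A gene was called where limma, run on log2(normalized count + 1), gave an adjusted p (Benjamini-Hochberg, over all genes tested) no higher than 0.05, and an exact permutation test of 3 libraries against 3 could not have gone below p = 0.1.

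Summed over the 10 genes, the normalized counts were 17603, 16042 and 14980 in the DMSO libraries. They were 11185, 11232 and 11468 with VHL-r and 11694, 11837 and 10414 with R4VPL3-1. Every treated library lay below every DMSO library, and the compounds' ranges overlapped.

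**Figure D1:**
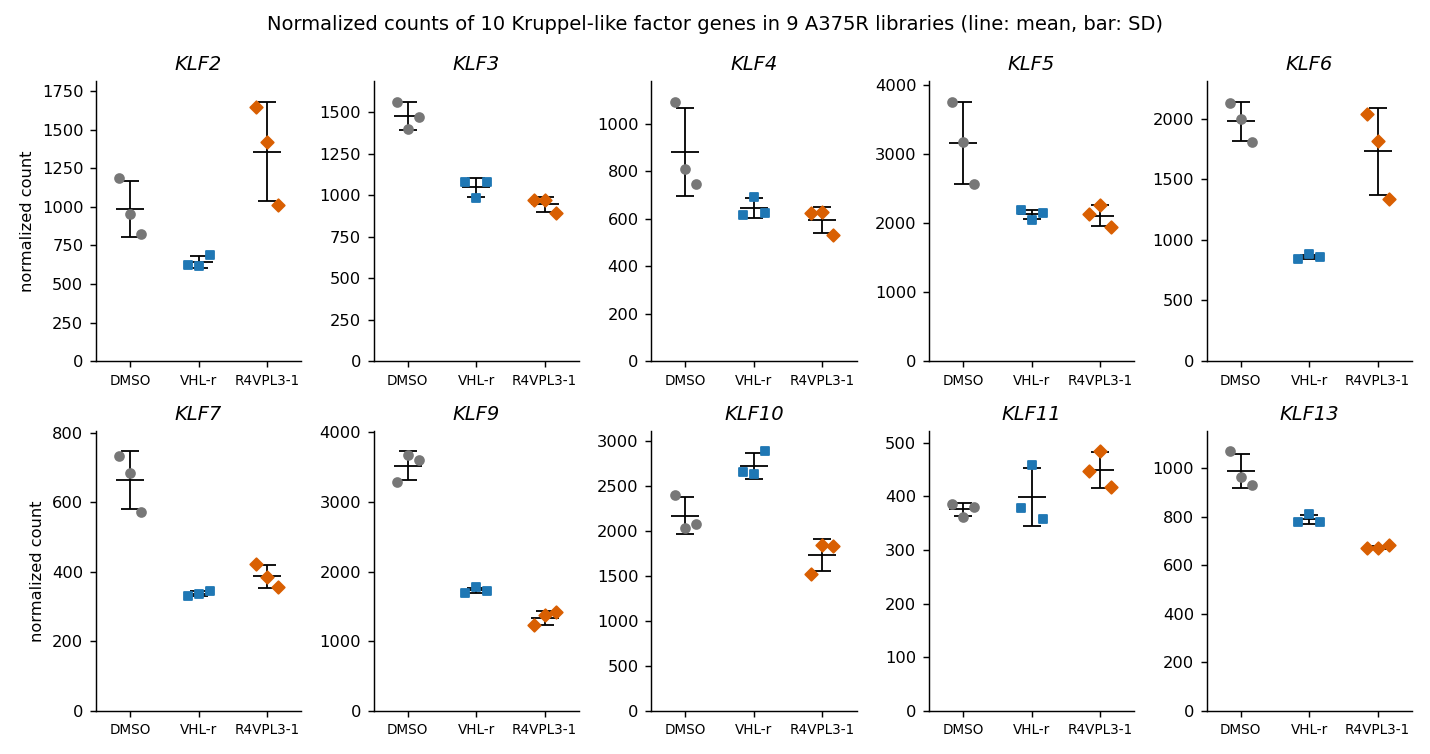
Normalized counts (vertical axes, from 0) of the 10 genes in the 9 libraries, with circles for DMSO, squares for VHL-r and diamonds for R4VPL3-1, and black lines for the mean and SD of 3 libraries. KLF6 drops to between 843 and 880.3 with VHL-r and lies between 1337 and 2040.2 with R4VPL3-1, while KLF9 steps down from DMSO to VHL-r to R4VPL3-1.

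Among the factors that work with acetyltransferases, KLF2 and KLF6 separated the compounds. KLF2, a factor known for quiescence of endothelium and T cells, is encoded on chromosome 19 from 16324826 to 16328685 in GRCh38 (ENSG00000127528). Its normalized counts were 1186, 952 and 824 in DMSO, 624, 619.8 and 686 with VHL-r, and 1648, 1419 and 1009.6 with R4VPL3-1. All VHL-r libraries were below all others, and the R4VPL3-1 and DMSO libraries overlapped. KLF2 was 2.07-fold higher with R4VPL3-1 than with VHL-r (log2 fold change 1.05, SE 0.13, limma adjusted p = 2.95e-05). Against DMSO it fell with VHL-r to 65.9% (log2 fold change -0.60, SE 0.13, limma adjusted p = 0.00194) and rose to 136% with R4VPL3-1 (log2 fold change 0.45, SE 0.13, limma adjusted p = 0.0147). Limma's robust option ended all 3 KLF2 calls, with adjusted p = 0.0713 between the compounds, 0.0938 for VHL-r and 0.176 for R4VPL3-1 against DMSO. The rise against DMSO was also lost with DESeq2 (adjusted p = 0.0895) and in limma without DMSO replicate 3 (0.33, adjusted p = 0.0929), R4VPL3-1 replicate 1 (0.29, adjusted p = 0.108) or R4VPL3-1 replicate 2 (0.40, adjusted p = 0.0665).

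KLF6, an early-response factor first described as a growth suppressor, is encoded on chromosome 10 from 3775996 to 3785281 (ENSG00000067082). Its counts were 2128.5, 1996 and 1810.1 in DMSO, 843, 880.3 and 855 with VHL-r, and 2040.2, 1815 and 1337 with R4VPL3-1. The VHL-r libraries were close together (SD 19.2) and below every other library, while the R4VPL3-1 libraries reached into the DMSO range. VHL-r lowered KLF6 to 43.6% of DMSO (log2 fold change -1.20, SE 0.10, limma adjusted p = 2.07e-08), the largest fall among the 10 genes with that compound. With R4VPL3-1 it was at 86.4% of DMSO (log2 fold change -0.21, 95% interval -0.42 to -0.0026, limma adjusted p = 0.136), which was not called. Leaving out R4VPL3-1 replicate 1 made that difference -0.34 (limma adjusted p = 0.0103), leaving out R4VPL3-1 replicate 3 made it -0.037 (limma adjusted p = 0.753), and a replicate block gave adjusted p = 0.0387. R4VPL3-1 was 1.98-fold above VHL-r (log2 fold change 0.99, SE 0.10, limma adjusted p = 1.90e-06). Limma's robust option weakened this difference to an adjusted p of 0.0121, still called.

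KLF7, a factor known from neuronal differentiation and the closest relative of KLF6, fell with both compounds. Its counts were 734, 685 and 573 in DMSO, 330.2, 337 and 344 with VHL-r, and 422, 385 and 355 with R4VPL3-1, so that both treatments were clear of DMSO and of each other. It fell to 51.1% of DMSO with VHL-r (log2 fold change -0.97, SE 0.092, limma adjusted p = 1.34e-07) and to 58.6% with R4VPL3-1 (log2 fold change -0.77, SE 0.092, limma adjusted p = 2.00e-06). The compounds differed by 0.20 on the log2 scale (95% interval 0.0042 to 0.39), and this did not pass the threshold (limma adjusted p = 0.488).

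KLF5, a factor that promotes proliferation of epithelial cells, had 3754, 3173 and 2566 counts in DMSO, 2187, 2049 and 2141 with VHL-r, and 2127, 2259 and 1943 with R4VPL3-1. DMSO lay above both compounds, whose libraries overlapped. KLF5 fell to 68.0% of DMSO with VHL-r (log2 fold change -0.56, SE 0.089, limma adjusted p = 9.93e-05) and to 67.4% with R4VPL3-1 (log2 fold change -0.57, SE 0.089, limma adjusted p = 5.62e-05). The difference between the compounds was -0.013 on the log2 scale, with a 95% interval from -0.20 to 0.17 (limma adjusted p = 0.988).

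KLF4, one of the reprogramming factors and a differentiation factor of skin and gut epithelium, had 1091.5, 809 and 744 counts in DMSO, 615, 691 and 623 with VHL-r, and 622, 627 and 529 with R4VPL3-1. Every treated library was below every DMSO library. It fell to 73.9% of DMSO with VHL-r (log2 fold change -0.44, SE 0.11, limma adjusted p = 0.00516) and to 68.0% with R4VPL3-1 (log2 fold change -0.56, SE 0.11, limma adjusted p = 4.59e-04). Without DMSO replicate 1, the highest library, the VHL-r difference was -0.27 (limma adjusted p = 0.0407). Between the compounds the log2 difference was -0.12 (95% interval -0.34 to 0.10, limma adjusted p = 0.835).

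**Figure D2:**
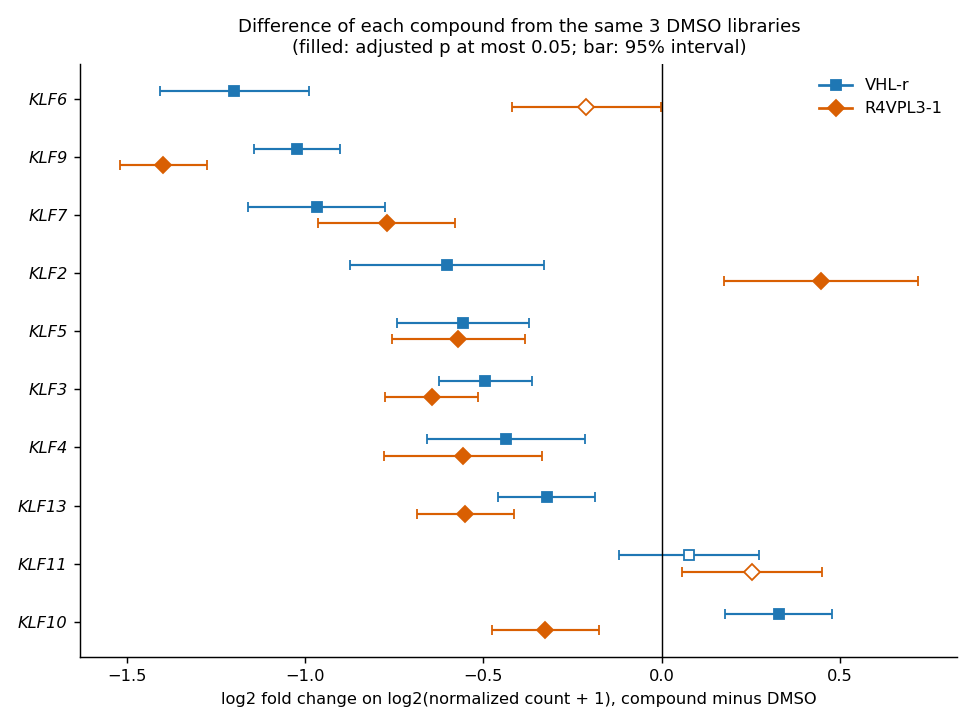
Log2 fold change against the same 3 DMSO libraries (horizontal axis) for each gene, with squares for VHL-r and diamonds for R4VPL3-1, bars for unadjusted 95% intervals and filled symbols for calls. KLF2 and KLF10 lie on opposite sides of 0 with the 2 compounds, KLF6 is far below 0 only with VHL-r, and KLF11 has open symbols for both.

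Among the 4 SIN3A-binding genes of the 10, KLF9 fell the furthest and KLF10 moved in opposite directions with the 2 compounds. KLF9, a target of the glucocorticoid receptor and of thyroid hormone that restrains proliferation, is encoded on chromosome 9 from 70384604 to 70414657 (ENSG00000119138). Its counts were 3292, 3672 and 3604 in DMSO, 1698, 1774 and 1723 with VHL-r, and 1227, 1370.0 and 1414 with R4VPL3-1. No treatment overlapped another. KLF9 fell to 49.2% of DMSO with VHL-r (log2 fold change -1.02, SE 0.058, limma adjusted p = 7.49e-11) and to 37.9% with R4VPL3-1 (log2 fold change -1.40, SE 0.058, limma adjusted p = 2.17e-13). With R4VPL3-1 it was at 77.1% of its VHL-r level (log2 fold change -0.38, SE 0.058, limma adjusted p = 4.48e-04).

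KLF10, also named TIEG1 after its early induction by TGF-beta, is encoded on chromosome 8 from 102648784 to 102655725 (ENSG00000155090). It was read at 2401, 2029.7 and 2077 counts in DMSO, 2651, 2627 and 2880.1 with VHL-r, and 1523, 1839 and 1835 with R4VPL3-1. VHL-r lay above DMSO and R4VPL3-1 below it, with no overlap. KLF10 rose 1.26-fold with VHL-r (log2 fold change 0.33, SE 0.072, limma adjusted p = 0.00212) and fell to 79.8% with R4VPL3-1 (log2 fold change -0.33, SE 0.072, limma adjusted p = 0.0018). The R4VPL3-1 level was 63.5% of the VHL-r level (log2 fold change -0.65, SE 0.072, limma adjusted p = 5.45e-06).

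KLF11, the other TGF-beta-inducible member (TIEG2), was not called in the 3 comparisons, but for R4VPL3-1 against DMSO 11 of 22 alternatives called it. Its counts were 386, 362 and 379 in DMSO, 378, 459 and 358 with VHL-r, and 446, 484 and 416 with R4VPL3-1. The R4VPL3-1 libraries were all above DMSO, and VHL-r overlapped both. With R4VPL3-1 the log2 difference from DMSO was 0.25 (95% interval 0.058 to 0.45, limma adjusted p = 0.0539). The alternatives that called it included edgeR (adjusted p = 0.0412), limma after TMM (adjusted p = 0.0442) or upper-quartile scaling (adjusted p = 0.0361), the robust option (adjusted p = 0.0493) and the 6 libraries alone (adjusted p = 0.0353). It also passed without R4VPL3-1 replicate 3 (limma adjusted p = 0.0328), VHL-r replicate 2 (adjusted p = 0.0381) or VHL-r replicate 3 (adjusted p = 0.042), and over the alternatives the adjusted p ran from 0.0249 to 0.208. The difference was 0.077 for VHL-r (95% interval -0.12 to 0.27, limma adjusted p = 0.645) and 0.18 between the compounds (95% interval -0.019 to 0.37, limma adjusted p = 0.585).

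KLF13, a factor known for RANTES induction in T cells and for heart development, had 1068, 964 and 932 counts in DMSO, 777, 809.9 and 779 with VHL-r, and 670.4, 669 and 681 with R4VPL3-1. The treatments did not overlap. It fell to 80.0% with VHL-r (log2 fold change -0.32, SE 0.065, limma adjusted p = 9.65e-04) and to 68.3% with R4VPL3-1 (log2 fold change -0.55, SE 0.065, limma adjusted p = 1.57e-06). Its R4VPL3-1 libraries were all below its VHL-r libraries, yet the log2 difference of -0.23 (95% interval -0.36 to -0.093) was not called over all genes (limma adjusted p = 0.0865).

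KLF3, the CtBP-recruiting repressor, had 1563, 1399 and 1470.4 counts in DMSO, 1082, 983 and 1078.5 with VHL-r, and 968, 972 and 893 with R4VPL3-1. The DMSO libraries were the highest, and the R4VPL3-1 libraries were just under the VHL-r range. KLF3 fell to 70.9% of DMSO with VHL-r (log2 fold change -0.50, SE 0.063, limma adjusted p = 6.11e-06) and to 64.0% with R4VPL3-1 (log2 fold change -0.64, SE 0.063, limma adjusted p = 1.09e-07). Between the compounds the log2 difference was -0.15 (95% interval -0.28 to -0.019, limma adjusted p = 0.39).

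**Figure D3:**
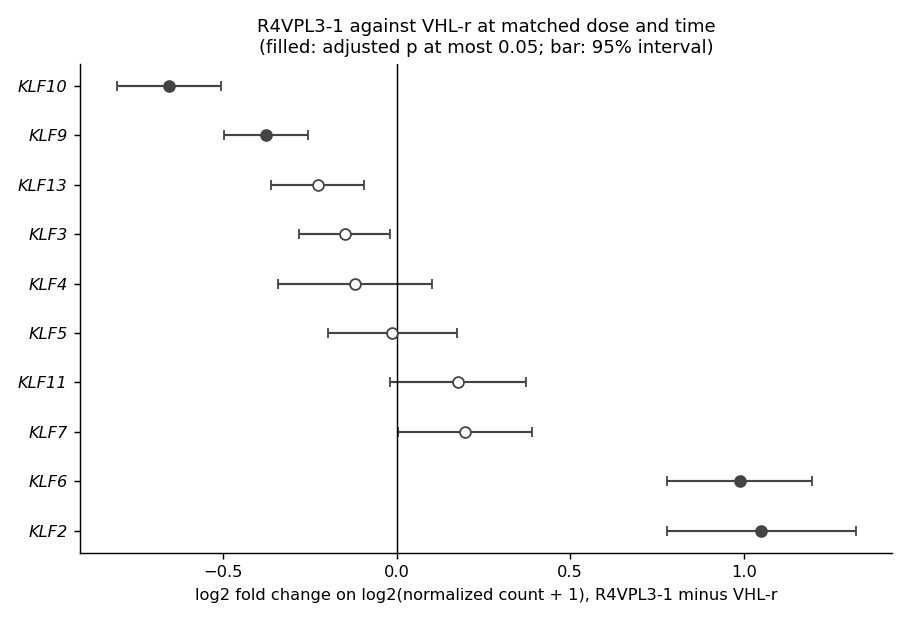
Log2 fold change of R4VPL3-1 minus VHL-r (horizontal axis) for each gene at 10 µM and 2 h, with bars for unadjusted 95% intervals and filled circles for calls. KLF10 and KLF9 are called below 0 and KLF6 and KLF2 above it, near 1, and the 6 other genes lie between -0.23 and 0.20.

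Levels were compared between genes as normalized counts per kilobase of exon, over all annotated exons of a gene. This length exceeds the reference transcript unevenly, with 3821 against 2915 bases for KLF10 and 6139 against 4590 for KLF6. The 2 lengths are equal for KLF2 (2820) and KLF9 (5201). The order between genes can therefore depend on the length used. In DMSO KLF5 was the highest at 860.1 ± 161.5 (SD, n = 3), followed by KLF9 at 677.3 ± 39.0 and KLF10 at 567.7 ± 52.9. KLF2 (350.2), KLF6 (322.2), KLF4 (240.7) and KLF3 (218.2) formed a middle range in which each gene's libraries overlapped those of the next. KLF13 (104.8), KLF11 (81.8) and KLF7 (69.0) were the lowest, without overlap. KLF5 and KLF9 overlapped as well. These levels stood between the 42.9 and 90.1 percentiles of the 15221 tested genes with a length.

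The order changed with treatment. With VHL-r KLF10 was the highest at 711.7 ± 36.6 per kilobase, above KLF5 at 577.8 ± 19.0, and KLF6 dropped from rank 5 to rank 7 at 140.0 ± 3.13. With R4VPL3-1 KLF2 came second at 481.8 ± 114.7, between KLF5 (573.5 ± 43.2) and KLF10 (453.3 ± 47.4), and overlapped both. KLF9 went from rank 2 in DMSO to rank 5 with R4VPL3-1 (257.1 ± 18.8), where it overlapped KLF6 (281.9 ± 58.5).

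**Figure D4:**
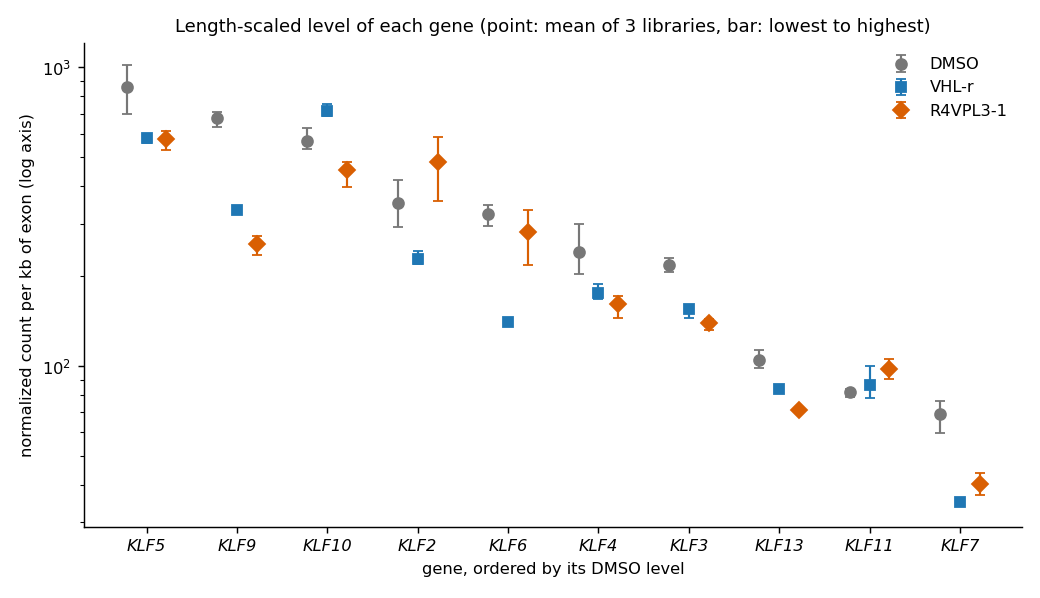
Normalized counts per kilobase of exon (log axis) for each gene in the order of its DMSO level, with points for the mean and bars from the lowest to the highest of 3 libraries. KLF10 tops the VHL-r squares at 711.7, KLF2 reaches 481.8 with R4VPL3-1, and KLF7 is the lowest gene in all 3 treatments.

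Most of the 10 genes had long 3′ UTRs with many ATTTA pentamers. Counted on the reference transcript of each gene, the median 3′ UTR was 2750 bases against 1369 over 12246 tested genes, and 8 of 10 were longer than that median. The pentamer ATTTA, the core of AU-rich elements found in unstable mRNAs, occurred 2.32 times per kilobase at the median against 1.78, and 8 of 10 were above. KLF5 had the densest (3.03 per kilobase) and KLF13 the sparsest (0.893). These are sequence counts, and mRNA decay was not measured. No exon base of the 10 genes lay under another gene on the same strand. Genes on the opposite strand covered 3.91% of the exon bases of KLF3, 9.75% of KLF4, 0.832% of KLF7 and 9.06% of KLF11, and the counting used strand.

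Of the other 17 KLF and SP genes listed, 9 were tested. Between the compounds limma, edgeR and DESeq2 each called 0, and 2 had an unadjusted limma p under 0.05. VHL-r raised 2 and lowered 4 (10.3% and 9.51% of all genes tested), and R4VPL3-1 raised 3 and lowered 4 (13.1% and 11.8%). KLF14, a SIN3A-binding relative with a low level, fell from 36.9 ± 3.5 counts in DMSO to 13.0 ± 3.21 with VHL-r (log2 fold change -1.46, limma adjusted p = 8.28e-04) and 16.6 ± 4.07 with R4VPL3-1 (-1.13, limma adjusted p = 0.00579). SP8, a factor of limb and forebrain development, fell from 38.9 ± 10.9 to 11.3 ± 1.81 and 5.79 ± 4.47. It passed the filter only through its DMSO libraries, which favoured a lower call. KLF12, another CtBP-binding repressor, rose from 374.5 ± 10.2 to 460.9 ± 55.4 and 453.0 ± 13.5. SP4 rose from 825 to 1185 and 1162. KLF15 rose with R4VPL3-1 (0.49, limma adjusted p = 0.0112) and stood at 0.13 with VHL-r (limma adjusted p = 0.581). KLF16 was at 995, 975 and 1017 and was not called in any comparison.

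Of 17 genes for proteins that Kruppel-like factors recruit, VHL-r changed 1, where 19.8% of all genes tested were called. R4VPL3-1 changed 4 of the 17, a share close to the 24.9% of all genes tested. Between the compounds, 0 of these cofactor and corepressor genes were called in limma, edgeR or DESeq2, with 1 at an unadjusted limma p under 0.05. CTBP1 and CTBP2 were called in no comparison. SAP30, a subunit of the SIN3A complex, rose with VHL-r (log2 fold change 0.31, limma adjusted p = 0.00755) and with R4VPL3-1 (0.47, limma adjusted p = 1.29e-04). R4VPL3-1 also raised the acetyltransferase genes CREBBP (0.23) and EP300 (0.17, limma adjusted p = 0.0494).

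Of the ubiquitin ligases linked to Kruppel-like proteins, 4 of 9 tested fell with both compounds. Of all genes tested, 9.51% were called lower with VHL-r and 11.8% with R4VPL3-1. Between the compounds 0 were called in limma, edgeR or DESeq2, with 3 at an unadjusted limma p under 0.05. Those that fell were FBXO32 (log2 fold change -0.48 with VHL-r and -0.71 with R4VPL3-1), SIAH1 (-0.51 and -0.26), SMURF1 (-0.23 and -0.25) and SMURF2 (-0.35 and -0.49). WWP1 and FBXW7, which target KLF5 and KLF2, were not called. The mRNAs of the ligases the compounds bind were not called either. VHL was at 1703, 1761 and 1731 counts in DMSO, VHL-r and R4VPL3-1, and RNF4 at 406.9, 429.5 and 406.9. Protein levels were outside these data.

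Signals known to feed the family were read from lists of their own genes. The kinase ERK5 and the MEF2 factors drive KLF2 and KLF4 in endothelium. In that list 3 of 7 tested genes were called with each compound, beside 19.8% (VHL-r) and 24.9% (R4VPL3-1) of all genes. The kinase gene MAP3K3 (0.35 with VHL-r and 0.27 with R4VPL3-1) and MEF2D (0.22 and 0.25) rose, and MEF2C (-0.49 and -0.63) fell. Between the compounds, where KLF2 differed, 0 were called in limma, edgeR or DESeq2, and 0 had an unadjusted limma p under 0.05. The kinase gene MAPK7, which encodes ERK5, stood at -0.14 and -0.0080.

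TGF-beta signalling induces KLF10 and KLF11. Of its 15 listed genes, VHL-r raised 2 and lowered 6 (10.3% and 9.51% of all genes tested). R4VPL3-1 raised 2 and lowered 10 (13.1% and 11.8%). Between the compounds, 4 were lower with R4VPL3-1 than with VHL-r (0.729% of all genes), as KLF10 was. These 4 were TGIF1, a SMAD corepressor (log2 fold change -0.90, limma adjusted p = 1.06e-07), the feedback inhibitor SMAD7 (-0.57, limma adjusted p = 0.00188), the matricellular protein gene CCN2 (-0.51, limma adjusted p = 8.75e-04) and PMEPA1 (-0.24, limma adjusted p = 0.00891). The median of the list was -0.13 between the compounds. The ligand gene TGFB2 (-0.76 with VHL-r and -0.69 with R4VPL3-1) and the inhibitor gene SMAD6 (-0.47 and -0.52) fell with both compounds. CCN2 fell with VHL-r (-0.55), where KLF10 rose, and SKI, a repressor of SMAD signalling, rose with both compounds (0.66 and 0.58).

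Glucocorticoid receptor targets, the list to which KLF9 belongs by its regulation, moved in both directions. SGK1 fell with VHL-r (-1.04, limma adjusted p = 1.26e-08) and further with R4VPL3-1 (-2.15, limma adjusted p = 1.16e-13), and it was lower with R4VPL3-1 than with VHL-r (-1.11, limma adjusted p = 2.32e-08), the same order as KLF9. PER1 rose with both (0.93 and 0.87) and DUSP1, a MAP kinase phosphatase, rose by 0.47 and 1.70 and was higher with R4VPL3-1 than with VHL-r (1.24, limma adjusted p = 1.06e-07). FKBP5 rose with VHL-r (0.21) and ERRFI1 fell with R4VPL3-1 (-0.33). In all, VHL-r raised 3 and lowered 2 of 8 tested (10.3% and 9.51% of all genes tested). R4VPL3-1 raised 2 and lowered 3 (13.1% and 11.8%). NR3C1 was counted among those lowered by each compound. Between the compounds, 1 was higher and 1 lower with R4VPL3-1 (1.14% and 0.729%).

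Of 19 genes reported as targets of the family, 14 were tested. VHL-r raised 2 and lowered 6 (10.3% and 9.51% of all genes tested), and R4VPL3-1 raised 3 and lowered 7 (13.1% and 11.8%). S1PR1, a receptor gene that KLF2 activates in T cells, fell from 147 counts in DMSO to 37.0 with VHL-r and 32.4 with R4VPL3-1. Its log2 fold changes were -1.95 and -2.14. EDN1, the endothelin gene, fell from 26.0 to 7.15 and 4.98. It passed the filter only through its DMSO libraries, so the filter itself favoured its place among the lowered genes. TXNIP, an inhibitor of thioredoxin, rose from 1470.1 to 4415 and 6613, and R4VPL3-1 was above VHL-r (0.58, limma adjusted p = 6.70e-05). ATF3, a stress-response factor, rose with R4VPL3-1 (1.89, limma adjusted p = 1.80e-08) and stood higher than with VHL-r (1.79, limma adjusted p = 3.86e-07). CDKN1B, a cell cycle inhibitor, fell with both (-0.58 and -0.57). THBD and NOS3, endothelial targets of KLF2, were below the filter with group means of at most 6.16 and 1.04 counts.

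The genes whose pair of log2 fold changes against DMSO lay nearest to that of each gene differing between the compounds were looked up over the 9 libraries. For KLF9 they were TRIB2 (distance 0.021 log2 units), FJX1 (0.037) and TMEM100 (0.067), with mean counts of 1394, 849 and 12.6. DLX2 (0.042), PCDH12 (0.063) and N4BP3 (0.064) were nearest to KLF10, with mean counts of 598, 13.5 and 10.2. KLF2 had TEX21P (0.067), DNAJA2-DT (0.146) and ADM (0.148), with mean counts of 11.01, 10.5 and 565. For KLF6 the nearest were CYSRT1 (0.102), C3orf33 (0.175) and LNMICC (0.178), all with means of at most 20.7 counts.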

How the data were processed

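RNA from 9 A375R cultures was poly(A)-selected, made into directional libraries and sequenced as single reads. Per the study's methods and the submitters' processing notes, the authors aligned reads to GRCh38 with STAR, counted them per Ensembl gene by strand with htseq-count, and divided the counts by DESeq2 1.36.0 size factors. The deposited values are that signal, read counts per size factor to 2 decimals, called normalized counts here. Whole reads were recovered from them (100% of values above 0 whole within 0.006 units), which gave totals of 26435568 to 32085626 and size factors of 0.9341 to 1.1012. These depths bound counting error only.

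The 15230 genes averaging 10 or more normalized counts were tested with limma 3.58.1 (trend) in R 4.3.3 on log2(normalized count + 1), with treatment as the single factor and all 9 libraries in 1 fit. Fold changes on this scale slightly understate those of low genes. Standard errors and 95% intervals come from the moderated fit, and p-values were Benjamini-Hochberg adjusted over these genes. They measure the spread between libraries that the methods call independent biological repeats. The script was tested on simulated data. Alternatives were other pseudocounts (0.1 and 5), filters, scalings (TMM, upper quartile), robust limma, blocking on the replicate number, recovered reads in edgeR 4.0.16 or DESeq2 1.42.0, leaving out libraries and a threshold of 0.01.

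The 10 genes and all lists were chosen with earlier results of these data known. Named genes are the 10, the called members of each list (the 4 largest differences where more were called), the 3 nearest genes of each gene called between the compounds, and other tested KLF rows, apart from items not reported here; a few uncalled genes (CTBP1, CTBP2, WWP1, FBXW7, VHL, RNF4, MAPK7, THBD, NOS3) were added after their values were seen. GENCODE 44, which holds 62639 of the 62710 genes, gave exon lengths and 3′ UTRs. RefSeq promoter windows were matched for 8 of the 10, taking the window nearest the reference start.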

Additional observations from a re-analysis of the deposited data

How the results depend on the processing

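Of the 30 differences of the 10 genes, 23 kept their direction and side of the threshold in each alternative run. Those that did not concerned KLF2 in all 3 comparisons, KLF5 between the compounds, KLF6 and KLF11 with R4VPL3-1 and KLF11 with VHL-r, and the cause was not tested. Over 690 values, 664 were unchanged in direction and call, 14 gained and 8 lost a call, and 4 changed sign, none of them called. With 1 library left out in turn, KLF5 between the compounds ran from -0.064 to 0.045 and KLF11 with VHL-r from -0.029 to 0.149. Uncalled differences between the compounds also moved by over 1.5 times, KLF4 from -0.12 to -0.041 without R4VPL3-1 replicate 3 and to -0.068 without VHL-r replicate 2, and KLF11 from 0.18 to 0.28 without VHL-r replicate 2 and to 0.10 without VHL-r replicate 3. KLF5 was 0.0078 without VHL-r replicate 1, 0.045 without R4VPL3-1 replicate 3 and 0.050 without the replicate 3 libraries of all treatments, and KLF11 with VHL-r was -0.029 without VHL-r replicate 2. At an adjusted p of at most 0.01, 1885 genes were called for VHL-r and 2494 for R4VPL3-1 against DMSO, where 3016 and 3792 were called at 0.05. Leaving out 1 library in turn, between 182 and 357 genes were called between the compounds (285 with all), the lowest without R4VPL3-1 replicate 1. With the KLF2 rise at 0.0147, the 0.01 threshold also removed that call.

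Same-numbered libraries deviated together only weakly over all genes tested, with correlations from -0.006 to 0.121. The third principal component nevertheless set the replicate 3 libraries of all treatments apart, so a shared replicate effect remains possible. The main fit followed the single-factor model of the study's methods and did not take the numbers as pairs. With a replicate block limma called 389 genes between the compounds, 3451 for VHL-r and 4241 for R4VPL3-1, and 4, 9 and 10 of the 10 Kruppel-like factors, the added ones being KLF6 (adjusted p = 0.0387) and KLF11 (adjusted p = 0.0305).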
